A study of Mus musculus with 8 samples.

Results

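The genes of the collagens and of the elastic fibre were examined in lungs of Wfdc2 mutant mice and their controls, before and after birth. The members were all genes named Col followed by a chain number (Col1a1 and the like), the fibulins (Fbln), the lysyl oxidase-like genes (Loxl), and Eln, Fbn1, Fbn2, Lox, Mfap2, Mfap4, Mfap5 and Emilin1. There were 60 of them among 25965 genes, and the rule used gene names only. The name pattern also took Col4a3bp, which encodes a ceramide transport protein and no collagen, and it is counted here as a member of its own kind.

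Total RNA of whole lung was sequenced from Wfdc2 +/+ mice and from Wfdc2 GFP/GFP mice, in which both alleles carry a GFP knock-in that disrupts Wfdc2 in every cell of the body. Lungs were taken before birth (embryonic day E18.5) and after it (postnatal day P1.5), with 2 libraries in each of the 4 groups, stated to come from separate animals. No treatment is given for any animal. The homozygous mutants die of respiratory failure soon after birth, so the P1.5 mutant lungs come from animals in the short span before death. In the check of the label, Wfdc2 had between 8038 and 32845 reads in Wfdc2 +/+ libraries and between 0 and 12 in Wfdc2 GFP/GFP libraries.

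Collagens are trimers of chains. Those of the fibrillar kind give tissue its tensile strength, collagen IV forms the sheet of the basement membrane on which epithelium and capillaries rest, and the fibril-associated kinds decorate the fibrils. Elastic fibres consist of a core of cross-linked elastin on a scaffold of fibrillin microfibrils, to which microfibril-associated proteins, emilin and fibulins bind. Lysyl oxidases join both collagen and elastin chains covalently. In the lung, elastic fibres carry the recoil of breathing and line the tips of the septa that divide the air spaces around and after birth.

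Between 19457647 and 37209333 reads stood behind each library, so that 3 reads, taken as the floor of detection, corresponded to 0.0806 to 0.154 RPM (the reads of a gene scaled to a library total of 1000000). Of the 60 members, 50 had a mean of at least 0.05 RPKM (RPM divided by the kilobases of the whole gene span) and were tested, together with 15627 genes in all. The counting included introns in the span, so long genes have low RPKM, and levels are compared between genes only per kilobase of exon. Those values divide all recovered reads of a gene by its exon length, so any intronic reads count in them. In bulk tissue, fewer cells of a type and less RNA per cell cannot be told apart. Replicate 1 of every group carried Xist reads (4121 to 90980) and replicate 2 carried Ddx3y reads (972 to 2175). Sex and replicate number thus coincided, also in the gaps between replicates and the fits without a library.

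Before any comparison, libraries that stood apart were looked for. The P1.5 Wfdc2 +/+ pair differed most: members were lower in replicate 1 than in replicate 2 with a median log2 difference of −1.54, and 5 of the 50 tested members were higher in replicate 1. Among all genes the same gap had a median of −0.60. Against the range of the 4 E18.5 libraries, P1.5 Wfdc2 +/+ replicate 1 lay below it for 41 members, within it for 3 and above it for 6. Replicate 2 lay below for 13, within for 21 and above for 16. Which of the pair is the typical one cannot be told apart with 2 libraries. At E18.5, replicate 1 of Wfdc2 GFP/GFP exceeded replicate 2 for 17 of the 20 members longer than 100 kb (median gap 1.36 log2) and for 15 of the 30 shorter ones (median gap 0.01). Among all tested genes longer than 100 kb it was higher for 1201 of 1444 (median 0.62), against a median of −0.11 for shorter genes. The E18.5 Wfdc2 +/+ pair and the P1.5 Wfdc2 GFP/GFP pair had median gaps of −0.12 and −0.22 among members. Several of the differences described here are therefore also given without 1 of these libraries. What set the libraries apart was not tested.

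**Figure D1:**
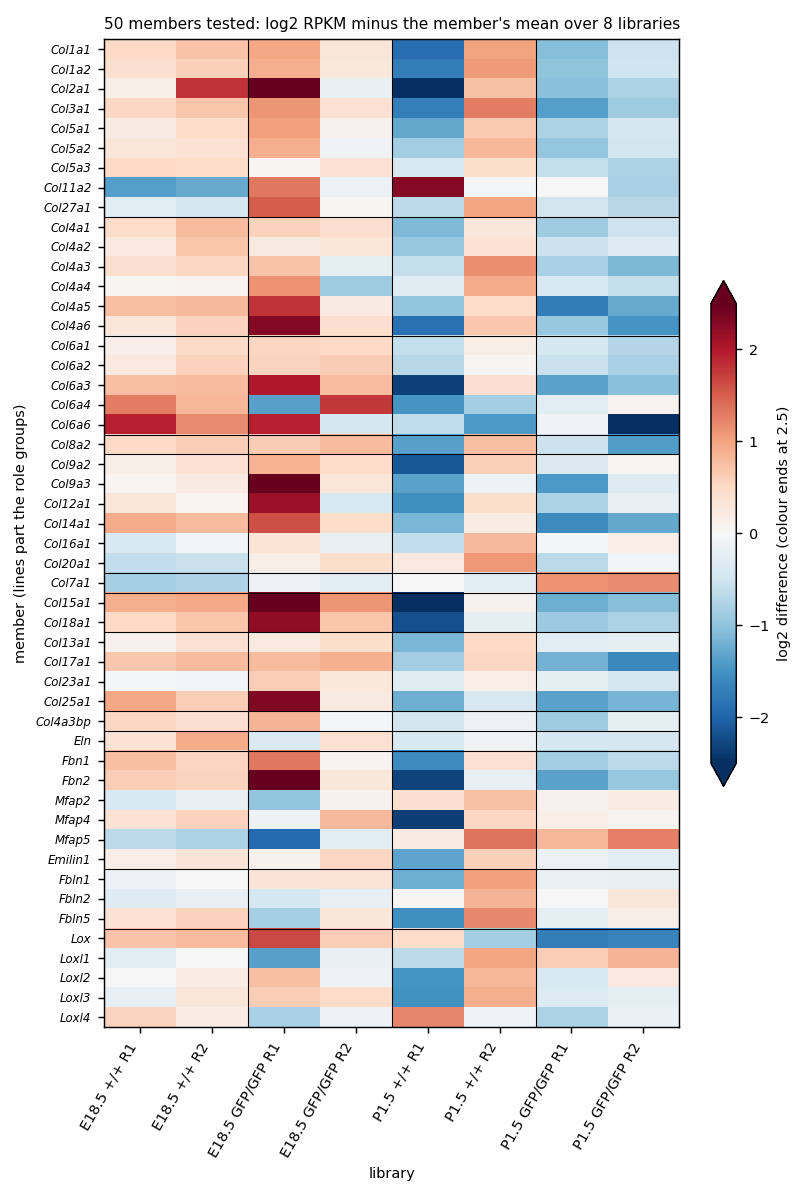
Heat map of the 50 tested members (1 per line, in groups of related function) in the 8 libraries (columns), coloured by log2 RPKM minus the member's own mean over the 8 libraries. Among the P1.5 libraries, Wfdc2 +/+ replicate 1 is the lowest for 26 of the 50 members and Wfdc2 +/+ replicate 2 the highest for 44.

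Per kilobase of exon, the most abundant member was Mfap4, a microfibril-associated glycoprotein, with a mean of 1146 RPM per exonic kilobase over the 8 libraries. Elastin (Eln) followed at 318, then the collagen IV chain Col4a1 at 223, Mfap2 at 167, Col6a1 at 153, Col4a2 at 146, Col3a1 at 140.1 and Col1a1 at 132. The order within this group is a description of 8 libraries that differ by stage, and any intronic reads count in it. Neighbours such as Col4a2, Col3a1 and Col1a1 lay within the spread of their own libraries. The cartilage collagen gene Col2a1 was the lowest tested member, at 0.174. All members together made up 0.692% to 2.20% of a library. Their sums were 18095 and 22026 RPM in E18.5 Wfdc2 +/+, 21820.4 and 18832 in E18.5 Wfdc2 GFP/GFP, 6924 and 19892 in P1.5 Wfdc2 +/+, and 9629.8 and 10481 in P1.5 Wfdc2 GFP/GFP. Both mutant P1.5 libraries and P1.5 Wfdc2 +/+ replicate 1 were below every E18.5 library, and P1.5 Wfdc2 +/+ replicate 2 was among them.

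Several collagen IV chains are encoded by neighbouring genes that are read in opposite directions from a shared start region. Their start regions are shown here because the paired chains are compared later. In the coordinates of the deposited table (mm10), Col4a1 and Col4a2 on chromosome 8 overlap by 22 bases at their starts, given in capitals within 30 bases of the plus strand, chr8:11312801-11312830. Col4a4 and Col4a3 on chromosome 1 start 72 bases apart, and the 71 bases between the starts are given from the plus strand, chr1:82586850-82586920. The starts of Col4a6 and Col4a5 on chromosome X lie 1309 bases apart. All sequences are from RefSeq tables of GRCm38.p6.

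Col4a1/Col4a2: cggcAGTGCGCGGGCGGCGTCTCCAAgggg

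Col4a4/Col4a3: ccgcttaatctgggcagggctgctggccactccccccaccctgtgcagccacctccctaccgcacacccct

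The third region belongs to Col7a1, the anchoring fibril collagen, which is shown because it had the largest excess of both mutant libraries over both controls at P1.5. The 250 bases before its start are given, chr9:108953336-108953585 on the plus strand, with capitals for matches on either strand to the motif CCAAT and to the GC box motif GGGCGG.

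Col7a1: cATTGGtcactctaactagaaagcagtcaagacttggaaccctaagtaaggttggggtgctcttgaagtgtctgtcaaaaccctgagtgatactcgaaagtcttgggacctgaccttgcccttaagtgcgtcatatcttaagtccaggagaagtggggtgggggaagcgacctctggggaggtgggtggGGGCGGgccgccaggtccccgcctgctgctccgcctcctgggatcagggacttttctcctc

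In all, 3 short motifs were searched for on both strands in the 250 bases before each start, the letters TATAAA of the TATA box, those of the CCAAT box, and the GC box motif GGGCGG. Of the members, 43 had 49 promoters in the RefSeq table. GGGCGG was found in 28 of these 49, against 32.7% of all 32851 promoters. CCAAT was found in 16 of 49 (33.8% of all) and TATAAA in 5 of 49 (12.4% of all). None of the 3 lies between the starts of Col4a4 and Col4a3. These matches are descriptions of letters and not binding sites.

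The first question was how these genes changed across birth. In the mean of both genotypes, Lox and Col14a1 fell from E18.5 to P1.5 and no member rose, by limma with Benjamini-Hochberg adjustment over all genes. Lox, the main lysyl oxidase, fell by 1.89 on the log2 scale (SE 0.348, adjusted p = 0.0353). Col14a1, a fibril-associated collagen that sits on collagen I fibrils, fell by 1.90 (SE 0.387, adjusted p = 0.0417). That is 0 of 50 tested members higher, against 2.58% of all genes tested, and 2 lower, against 2.56%. The share of members under the threshold was thus near that of all genes. At an unadjusted p under 0.05 there were 3 members higher and 20 lower, against 12.3% and 26.7% of all genes. Limma's voom on the recovered reads gave 1 higher (Col7a1) and 2 lower. In total 9 members had higher and 41 lower fitted values at P1.5. The median of the 50 was −0.84 on the log2 scale and that of all 15627 genes was −0.32. The members' median differed from that of all genes by −0.52 (log2), and by −0.77 to −0.52 with median centring, quantile normalization and median-of-ratios scaling. It was smaller with a pseudocount of 1 RPKM (−0.15) and without P1.5 Wfdc2 +/+ replicate 1 (−0.30). The members' own median ran from −1.19 to −0.44 with any single library left out, the ends being the fits without P1.5 Wfdc2 +/+ replicate 2 and replicate 1. The 3 scalings changed the calls more than the direction, to 4 higher and 4 lower, 3 and 7, and 4 and 5. They also changed the share of all genes called, to 8.18% higher and 3.61% lower, 4.54% and 3.63%, and 8.25% and 4.66%.

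Lox had 444 and 467 RPM in the E18.5 Wfdc2 +/+ libraries, 840.0 and 413 in E18.5 Wfdc2 GFP/GFP, 368 and 149.8 in P1.5 Wfdc2 +/+, and 81.1 and 85.8 in P1.5 Wfdc2 GFP/GFP. Every E18.5 library was above every P1.5 library, with the highest level in E18.5 Wfdc2 GFP/GFP replicate 1 and the lowest in the P1.5 mutant pair. Col14a1 (chromosome 15, 55307750 to 55520803, plus strand) had 277 and 254 RPM in the E18.5 Wfdc2 +/+ libraries, 443 and 200.9 in E18.5 Wfdc2 GFP/GFP, 66.3 and 165 in P1.5 Wfdc2 +/+, and 49.4 and 60.5 in P1.5 Wfdc2 GFP/GFP. Its groups by stage did not overlap either. Stage groups without overlap were found for 3 tested members in the higher direction (7.28% of all genes) and for 12 in the lower direction (13.7% of all genes), that is 6.0% and 24.0% of the tested members. The 3 were Mfap2, Mfap5 and Fbln2. Counting the untested members too, 15 of 60 were lower without overlap.

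The calls on Lox and Col14a1 changed with the libraries used. Without E18.5 Wfdc2 +/+ replicate 1 or 2, E18.5 Wfdc2 GFP/GFP replicate 1, or P1.5 Wfdc2 GFP/GFP replicate 1 or 2, neither passed limma's threshold (adjusted p between 0.104 and 0.158), while both log2 changes stayed between −2.22 and −1.56 with any single library left out. The call on Lox was also lost with no filter (adjusted p = 0.063), median centring (0.0662) and median-of-ratios scaling (0.0533), and that on Col14a1 with no filter (0.0704), a pseudocount of 1 RPKM (0.0591) and the replicate block (0.0619). Without P1.5 Wfdc2 +/+ replicate 1, Lox passed (adjusted p = 0.0177) and Col14a1 did not (adjusted p = 0.0511). Without P1.5 Wfdc2 +/+ replicate 2, 35 members passed, 2 higher and 33 lower, while 10.6% and 35.0% of all genes did. Without E18.5 Wfdc2 GFP/GFP replicate 2, 15 passed, 3 higher and 12 lower, against 8.91% and 11.3% of all genes.

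**Figure D2:**
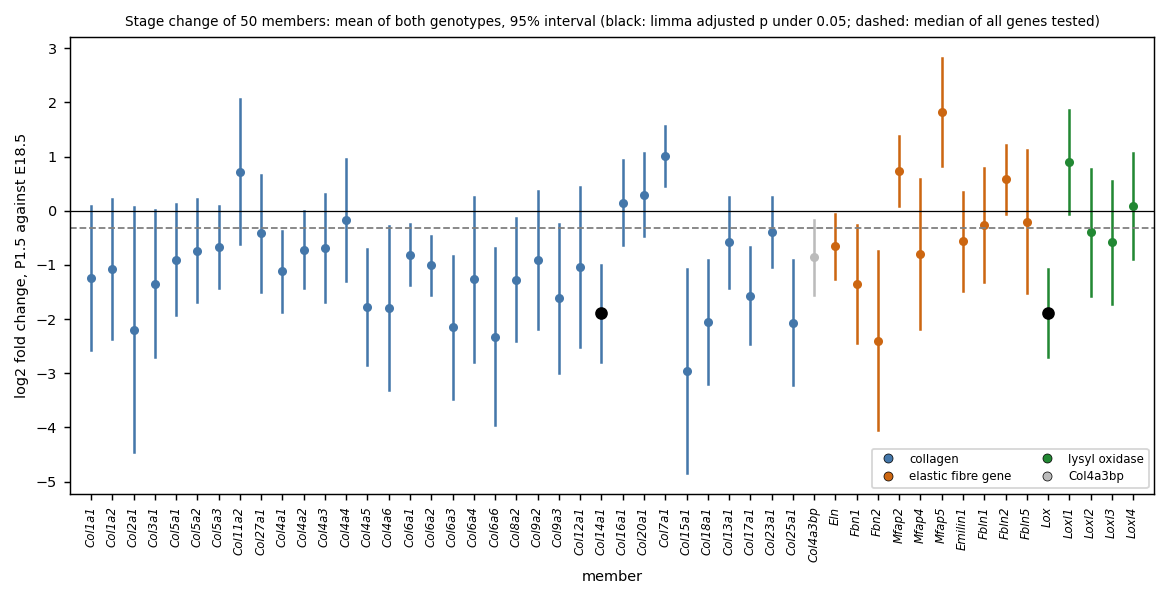
Log2 fold change of each tested member from E18.5 to P1.5 in the mean of both genotypes, with its 95% interval. Lox and Col14a1, in black, have adjusted p under 0.05; the dashed line is the median of all genes tested (−0.32), and 41 of 50 members lie below 0.

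Among the genes of the elastic fibre, elastin itself had 3123 and 4629 RPM in the E18.5 Wfdc2 +/+ libraries, 1898 and 3186 in E18.5 Wfdc2 GFP/GFP, 1866 and 2304 in P1.5 Wfdc2 +/+, and 1800.3 and 1809 in P1.5 Wfdc2 GFP/GFP. The 2 stages overlapped through E18.5 Wfdc2 GFP/GFP replicate 1, and the log2 difference was −0.66 (SE 0.262, adjusted p = 0.107) by limma. The fibrillins make the microfibril scaffold. Fbn1 had 381 and 331 RPM in the E18.5 Wfdc2 +/+ libraries, 569 and 242 in E18.5 Wfdc2 GFP/GFP, 75.9 and 297 in P1.5 Wfdc2 +/+, and 124 and 145 in P1.5 Wfdc2 GFP/GFP. Fbn2, the fibrillin that prevails in the embryo, had 101 and 96.3 RPM in the E18.5 Wfdc2 +/+ libraries, 672 and 79.8 in E18.5 Wfdc2 GFP/GFP, 13.2 and 57.1 in P1.5 Wfdc2 +/+, and 26.2 and 34.4 in P1.5 Wfdc2 GFP/GFP. E18.5 Wfdc2 GFP/GFP replicate 1 carried 8.43 times the Fbn2 level of its partner, while P1.5 was below E18.5 in every library. The log2 differences were −1.36 (SE 0.468, adjusted p = 0.0817) for Fbn1 and −2.40 (SE 0.715, adjusted p = 0.0653) for Fbn2, neither under the threshold of limma. With a single library left out, Fbn1 ran from −0.86 (without P1.5 Wfdc2 +/+ replicate 1) to −1.85 (without replicate 2, adjusted p = 0.00841). Fbn2 ran from −1.63 (without E18.5 Wfdc2 GFP/GFP replicate 1) to −3.17 (without replicate 2, adjusted p = 0.0241), and it also passed without P1.5 Wfdc2 +/+ replicate 2 (adjusted p = 0.0174).

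The fibulin Fbln5, which links elastin to microfibrils and to cells, had 258 and 299 RPM in the E18.5 Wfdc2 +/+ libraries, 112 and 244 in E18.5 Wfdc2 GFP/GFP, 68.8 and 462 in P1.5 Wfdc2 +/+, and 170.4 and 221 in P1.5 Wfdc2 GFP/GFP. The highest and the lowest library were both P1.5 Wfdc2 +/+, 6.72-fold apart. Its stage difference of −0.20 (SE 0.569) was of the other sign with median centring (0.27), quantile normalization (0.04) and median-of-ratios scaling (0.16), and had an adjusted p of 0.798 by limma. Loxl1, the oxidase that acts on elastin, had 76.5 and 91.7 RPM in the E18.5 Wfdc2 +/+ libraries, 35.9 and 81.2 in E18.5 Wfdc2 GFP/GFP, 58.0 and 183 in P1.5 Wfdc2 +/+, and 142 and 167 in P1.5 Wfdc2 GFP/GFP. Its level was highest in P1.5 libraries except for P1.5 Wfdc2 +/+ replicate 1, and the log2 difference was 0.90 (SE 0.413, adjusted p = 0.144) by limma, with 1.32 without that library and 0.49 without its partner. The 3 Mfap genes were chosen for mention after their values were seen. Mfap5 had 9.99 and 9.08 RPM in the E18.5 Wfdc2 +/+ libraries, 4.11 and 13.0 in E18.5 Wfdc2 GFP/GFP, 18.2 and 40.1 in P1.5 Wfdc2 +/+, and 28.0 and 37.7 in P1.5 Wfdc2 GFP/GFP. All P1.5 libraries were above all E18.5 libraries, with a log2 difference of 1.83 (SE 0.431, adjusted p = 0.0507) by limma. Mfap2, like Mfap5 a small glycoprotein of microfibrils, had a log2 difference of 0.73 (SE 0.280, adjusted p = 0.101) and likewise no overlap. Mfap4 was lowest in P1.5 Wfdc2 +/+ replicate 1 (375 RPM) and highest in E18.5 Wfdc2 GFP/GFP replicate 2 (3342 RPM), with a log2 difference of −0.80 (SE 0.598, adjusted p = 0.319). Lox and Loxl1 thus had opposite signs of change between stages, as did Fbn2 and Mfap5, although only Lox was called.

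**Figure D3:**
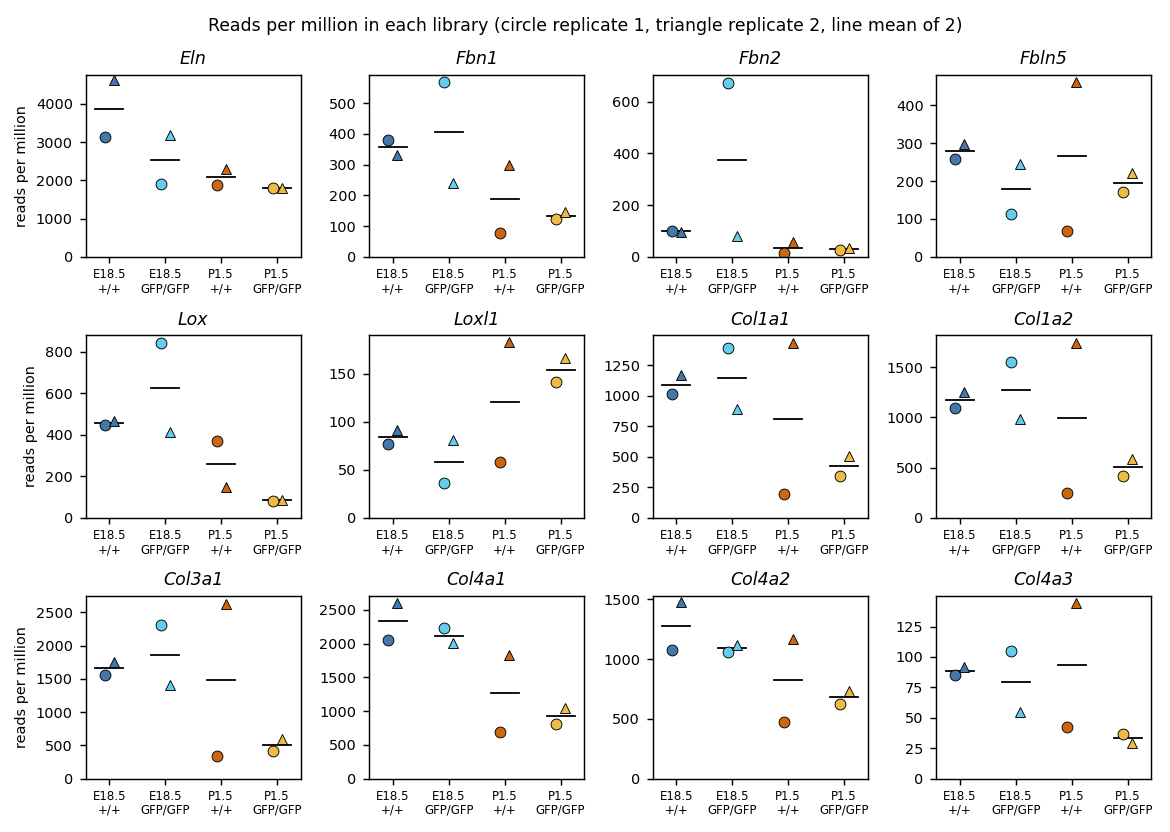
RPM (linear scale) of 12 core members in the 4 groups, with circles for replicate 1, triangles for replicate 2 and lines for the group means. Lox and Fbn2 are lower at P1.5 in all libraries, and the fibrillar collagens Col1a1, Col1a2 and Col3a1 are 6.97-fold to 7.90-fold apart within P1.5 Wfdc2 +/+.

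Of the fibrillar collagens, 9 of 11 were tested, of which 8 were lower and 1 (Col11a2) higher at P1.5, with a median of −0.91 (log2) and none called. Col1a1, the larger part of collagen I, had 1013 and 1171 RPM in the E18.5 Wfdc2 +/+ libraries, 1395 and 891 in E18.5 Wfdc2 GFP/GFP, 192 and 1433 in P1.5 Wfdc2 +/+, and 344 and 504 in P1.5 Wfdc2 GFP/GFP. Its partner chain Col1a2 had 1092 and 1253 RPM in the E18.5 Wfdc2 +/+ libraries, 1551 and 989 in E18.5 Wfdc2 GFP/GFP, 250.2 and 1745 in P1.5 Wfdc2 +/+, and 414 and 589 in P1.5 Wfdc2 GFP/GFP. Col3a1, the chain of collagen III found in elastic organs, had 1559 and 1756 RPM in the E18.5 Wfdc2 +/+ libraries, 2317 and 1406 in E18.5 Wfdc2 GFP/GFP, 333 and 2628 in P1.5 Wfdc2 +/+, and 415 and 589 in P1.5 Wfdc2 GFP/GFP. For all 3, P1.5 Wfdc2 +/+ held both the lowest and the highest library of the series, and the mutant P1.5 pair lay below every E18.5 library. The log2 stage differences were −1.24 (SE 0.574, adjusted p = 0.148), −1.07 (SE 0.555, adjusted p = 0.182) and −1.35 (SE 0.587, adjusted p = 0.131), in that order, by limma. Without P1.5 Wfdc2 +/+ replicate 1 they came to −0.51, −0.37 and −0.60, and without replicate 2 to −1.96, −1.78 and −2.09, where each passed the threshold (adjusted p between 0.00505 and 0.00574).

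All 6 chains of collagen IV were tested and all 6 had lower fitted values at P1.5 (median −0.92 log2), with none called. Col4a1 had 2058 and 2605 RPM in the E18.5 Wfdc2 +/+ libraries, 2232 and 2004 in E18.5 Wfdc2 GFP/GFP, 696 and 1836 in P1.5 Wfdc2 +/+, and 811 and 1049 in P1.5 Wfdc2 GFP/GFP. Col4a2 had 1076 and 1476 RPM in the E18.5 Wfdc2 +/+ libraries, 1061 and 1121 in E18.5 Wfdc2 GFP/GFP, 476 and 1169 in P1.5 Wfdc2 +/+, and 628 and 729.7 in P1.5 Wfdc2 GFP/GFP. P1.5 lay below E18.5 without overlap for Col4a1 and with overlap for Col4a2, and the log2 differences were −1.12 (SE 0.322, adjusted p = 0.063) and −0.72 (SE 0.308, adjusted p = 0.125) by limma. Without P1.5 Wfdc2 +/+ replicate 1 they were −0.77 and −0.40, and without replicate 2 they were −1.47 and −1.05, where both passed (adjusted p = 0.00564 and 0.0103). Col4a3, a chain of the collagen IV network of alveolar and kidney basement membranes, had 85.1 and 91.7 RPM in the E18.5 Wfdc2 +/+ libraries, 105 and 54.5 in E18.5 Wfdc2 GFP/GFP, 42.3 and 144 in P1.5 Wfdc2 +/+, and 36.8 and 29.4 in P1.5 Wfdc2 GFP/GFP, with a log2 difference of −0.69 (SE 0.433, adjusted p = 0.245). Its highest library was P1.5 Wfdc2 +/+ replicate 2 and its lowest was P1.5 Wfdc2 GFP/GFP replicate 2. The difference was −0.25 without P1.5 Wfdc2 +/+ replicate 1 and −1.13 without replicate 2 (adjusted p = 0.0246).

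Of the collagen VI chains, which form beaded filaments around cells, 5 were tested and all 5 were lower, with a median of −1.26. Col6a2 and Col6a3, named after their values were seen, had log2 differences of −1.01 (SE 0.237, adjusted p = 0.0501) and −2.15 (SE 0.572, adjusted p = 0.0574). The fibril-associated group had 6 tested members, 2 higher and 4 lower (median −0.98), of which Col14a1 was called. Both multiplexins, the basement membrane proteoglycan collagens Col15a1 and Col18a1, were lower without overlap between stages, with log2 differences of −2.96 (SE 0.813, adjusted p = 0.059) and −2.05 (SE 0.492, adjusted p = 0.0513). The 4 transmembrane collagens were lower (median −1.08, 0 called). The 6 microfibril genes had a median of −0.68, with 2 higher and 4 lower, and the 3 tested fibulins a median of −0.20, with 1 higher and 2 lower. Of the 5 lysyl oxidases 2 were higher and 3 lower (median −0.40). Col7a1 had a positive difference that missed the threshold, 1.004 (SE 0.240, adjusted p = 0.0513) by limma. Col4a3bp had a log2 difference of −0.86 (SE 0.300, adjusted p = 0.0839), so the ceramide transporter differed by about the median of the 50 members. At an adjusted p under 0.1, 19 members would have been called, 2 higher and 17 lower, against 10.1% and 21.7% of all genes.

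Within each genotype, the stage comparison has 2 libraries against 2, which an exact permutation test cannot take below p = 0.333. In Wfdc2 GFP/GFP, Lox fell by 2.82 on the log2 scale (SE 0.492, limma adjusted p = 0.039) and Col14a1 by 2.45 (SE 0.547, adjusted p just under 0.05). These were 0 higher and 2 lower, against 1.61% and 2.94% of all genes, and voom called 0 and 0. At an unadjusted p under 0.05 there were 3 and 15 (9.61% and 26.0% of all genes). The median of the members was −1.11, against −0.46 for all genes. In Wfdc2 +/+, limma called 0 members in either direction (0.0256% of all genes higher and 0.032% lower), with 3 and 6 at an unadjusted p under 0.05 (6.90% and 4.93% of all genes) and 0 by voom. The median there was −0.75, against −0.15 for all genes. The members' median differed from that of all genes by −0.60 in Wfdc2 +/+ and by −0.65 in Wfdc2 GFP/GFP. In Wfdc2 +/+ it became 0.24 without P1.5 Wfdc2 +/+ replicate 1 (0.17 for all genes) and −1.56 without replicate 2 (−0.47 for all genes). The wild-type change across birth thus depended on which control library was used, in direction for the median of the members and of all genes. In Wfdc2 GFP/GFP neither Lox nor Col14a1 was called when E18.5 Wfdc2 GFP/GFP replicate 1 was left out (adjusted p = 0.224 and 0.257), and 21 members were called, 3 higher and 18 lower, when either P1.5 Wfdc2 +/+ library was left out of the shared estimate of spread. In those fits 7.28% to 7.29% of all genes were called higher and 23.8% to 23.9% lower. The stage change did not differ between genotypes past the threshold for Lox (adjusted p = 0.416) or Col14a1 (adjusted p = 0.688).

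The second question was the genotype at P1.5. No member was called in either direction by limma, and 0.0128% of all genes were called (2 genes, both directions together), with 0 members by voom. At an unadjusted p under 0.05 there was 1 member higher in Wfdc2 GFP/GFP (Col7a1) and 1 lower (Lox), against 3.61% and 7.33% of all genes. The median of the members was −0.26 on the log2 scale, with 16 higher and 34 lower, and that of all genes was −0.20. The members' median became −0.92 (3 higher, 47 lower) without P1.5 Wfdc2 +/+ replicate 1 and 0.54 (34 higher, 16 lower) without replicate 2. In the same fits the median of all genes was −0.44 and 0.10. The direction of the whole set at P1.5 thus followed the choice of control library, as did that of all genes. Measured against each control separately, the mutant mean was above both for 2 of the 50 members (Col7a1 and Col6a4), below both for 15, above replicate 1 and below replicate 2 for 32, and the reverse for 1. The groups did not overlap for 2 tested members in the higher direction (12.6% of all genes) and 11 in the lower direction (26.9% of all genes), which are 4.0% and 22.0% of the members and below the share of all genes in both directions.

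**Figure D4:**
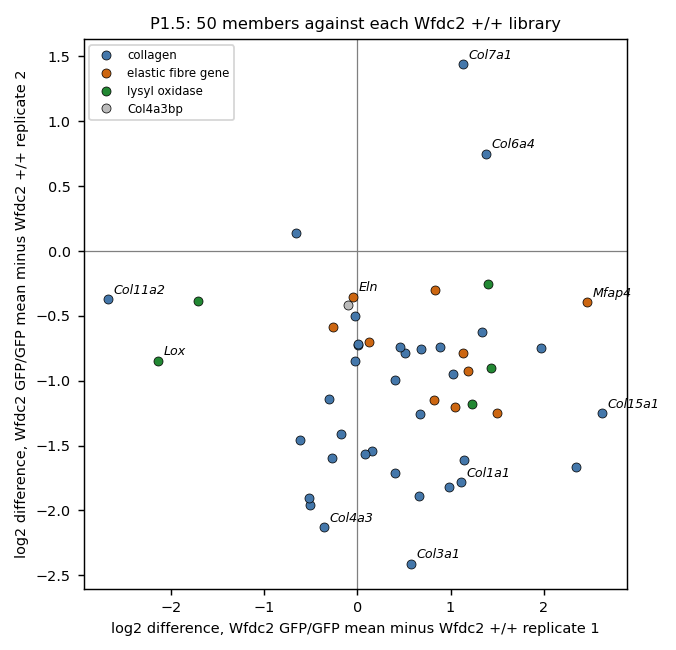
P1.5 Wfdc2 GFP/GFP mean minus P1.5 Wfdc2 +/+ replicate 1 (x axis) and minus replicate 2 (y axis), in log2 RPKM, for 50 members. Members above replicate 1 and below replicate 2 (32 of 50) fill the lower right, 15 lie below both controls, among them Lox, and Col7a1 and Col6a4 lie above both.

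Col7a1 (chromosome 9, 108953586 to 108984875, plus strand) encodes the anchoring fibrils that fix basement membranes to the tissue below. It had 8.89 and 9.30 RPM in the E18.5 Wfdc2 +/+ libraries, 14.4 and 13.1 in E18.5 Wfdc2 GFP/GFP, 15.9 and 12.9 in P1.5 Wfdc2 +/+, and 34.3 and 35.7 in P1.5 Wfdc2 GFP/GFP. Both mutant P1.5 libraries were above the other 6 libraries, where the highest was 15.9 RPM. The log2 difference at P1.5 was 1.29 (SE 0.339, adjusted p = 0.305) by limma, and was 1.439 without P1.5 Wfdc2 +/+ replicate 1 and 1.14 without replicate 2. Col6a4 (chromosome 9, 105989454 to 106096783, minus strand), a collagen VI chain, had 9.70 and 7.06 RPM in the E18.5 Wfdc2 +/+ libraries, 1.56 and 13.5 in E18.5 Wfdc2 GFP/GFP, 1.43 and 2.21 in P1.5 Wfdc2 +/+, and 3.28 and 4.20 in P1.5 Wfdc2 GFP/GFP. The levels at P1.5 are near the lower end of the members, the mutant pair lay above both controls, and the log2 difference was 1.06 (SE 0.930, adjusted p = 0.728). The spread at E18.5 was larger than this difference, since replicate 1 of Wfdc2 GFP/GFP held the lowest and replicate 2 the highest level of that age.

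Among the members lower in the mutants at P1.5 without overlap, those with the largest differences were Lox, Col4a3 and Col4a5. For Lox, whose libraries are given above, the difference was −1.49 (SE 0.492, adjusted p = 0.351) by limma. It was −0.84 without P1.5 Wfdc2 +/+ replicate 1, which held the higher of the control levels, and −2.14 without replicate 2. For Col4a3 it was −1.25 (SE 0.612, adjusted p = 0.509), and −2.13 without P1.5 Wfdc2 +/+ replicate 1 and −0.36 without replicate 2. Col4a5, the X-linked chain that assembles with Col4a3 and Col4a4, had 133 and 139 RPM in the E18.5 Wfdc2 +/+ libraries, 278 and 91.2 in E18.5 Wfdc2 GFP/GFP, 39.9 and 109 in P1.5 Wfdc2 +/+, and 23.7 and 33.1 in P1.5 Wfdc2 GFP/GFP, and its difference was −1.24 (SE 0.657, adjusted p = 0.543), with −1.96 and −0.51 in the same fits without 1 control. Both were lower in each mutant library than in each control library, and the controls themselves were 3.41-fold and 2.73-fold apart. The 95% intervals were −2.63 to −0.35 for Lox, −2.66 to 0.17 for Col4a3 and −2.76 to 0.29 for Col4a5, and all 3 were wide, with those of Col4a3 and Col4a5 reaching past 0. Elastin had 1866 and 2304 RPM in P1.5 Wfdc2 +/+ against 1800.3 and 1809 in P1.5 Wfdc2 GFP/GFP, with a log2 difference of −0.20 (SE 0.370, adjusted p = 0.851) and a 95% interval of −1.06 to 0.66.

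With E18.5 Wfdc2 GFP/GFP replicate 1 and 1 P1.5 control left out together, an alternative chosen after seeing the data, limma called members at P1.5. Without P1.5 Wfdc2 +/+ replicate 1 these were 1 higher (Col7a1) and 18 lower, against 3.83% and 13.2% of all genes. Without replicate 2 they were 6 higher and 2 lower (Lox and Col11a2), against 2.98% and 1.36% of all genes. Lox was called lower in both (log2 −0.84, adjusted p = 0.0402, and log2 −2.14, adjusted p = 0.0275, by limma). Fbln5, Emilin1 and Col15a1 were called lower against replicate 2 and higher against replicate 1. In each of these fits the lone control is assumed to vary like the other groups.

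The same comparison before birth, at E18.5, gave no member called in either direction by limma (0.0192% of all genes, both directions together) and none by voom, with 1 member (Col11a2) higher at an unadjusted p under 0.05, against 3.78% of all genes. The median was 0.17 on the log2 scale, with 35 higher and 15 lower, against 0.09 for all genes. Without E18.5 Wfdc2 GFP/GFP replicate 1 the members' median was −0.03, with median centring −0.04, and without replicate 2 it was 0.52. That of all genes was 0.14, −0.12 and 0.13, in the same order. Groups that did not overlap were found for 13 tested members in the higher direction (26.5% of all genes) and 3 in the lower (9.46% of all genes), or 26.0% and 6.0% of the members.

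Among the higher members without overlap, those with the largest differences were Col11a2, Col9a3 and Col15a1. Col11a2, a minor fibrillar chain best known from cartilage, had 1.63 and 1.76 RPM in the E18.5 Wfdc2 +/+ libraries, 10.5 and 3.80 in E18.5 Wfdc2 GFP/GFP, 20.4 and 4.11 in P1.5 Wfdc2 +/+, and 4.23 and 2.39 in P1.5 Wfdc2 GFP/GFP. Its log2 difference at E18.5 was 1.90 (SE 0.820). Col9a3, a fibril-associated chain of cartilage, had 2.03 and 2.28 RPM in E18.5 Wfdc2 +/+ against 12.8 and 2.43 in E18.5 Wfdc2 GFP/GFP. Col15a1, a multiplexin of vessel and muscle basement membranes, had 52.5 and 54.1 RPM in E18.5 Wfdc2 +/+ against 224 and 60.5 in E18.5 Wfdc2 GFP/GFP. In all 3 replicate 1 of the mutants was far above replicate 2, by 2.78-fold, 5.26-fold and 3.70-fold. The differences of Col9a3 and Col15a1 were 1.37 and 1.12. Without that library the 3 differences were 1.16 for Col11a2, 0.17 for Col9a3 and 0.18 for Col15a1. At this age the 8 cartilage markers summed to 203 and 216 RPM in Wfdc2 +/+ against 147 and 171 in Wfdc2 GFP/GFP, and the 5 bone markers to 32.8 and 32.9 against 69.3 and 16.6. Most of the cartilage sum was Matn4 and Hapln1, while Sox9, a cartilage regulator that lung epithelium also expresses, had 13.0 and 12.0 RPM in Wfdc2 +/+ against 29.7 and 18.6 in Wfdc2 GFP/GFP. Acan, Matn3 and Lect1, all at 2.15 RPM or less, were also highest in replicate 1 of the mutants. The part of these markers in the differences was not tested. The lower members without overlap were Loxl4, with 1.54 and 1.19 RPM in E18.5 Wfdc2 +/+ against 0.591 and 0.957 in E18.5 Wfdc2 GFP/GFP, Fbln5, with 258 and 299 against 112 and 244, and Col5a3, with 6.39 and 6.19 RPM in E18.5 Wfdc2 +/+ against 4.596 and 5.85 in E18.5 Wfdc2 GFP/GFP. Their log2 differences were −0.85, −0.75 and −0.28. Replicate 1 of the mutants was the lowest of the 4 libraries for all 3, and the adjusted p was 0.9998 for all 6 members by limma.

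**Figure D5:**
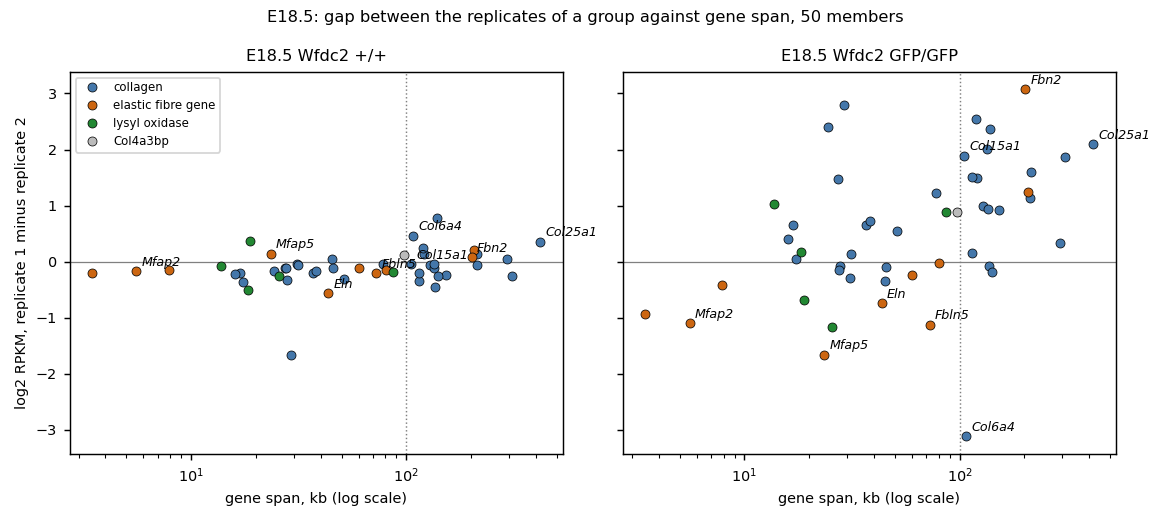
Difference between replicate 1 and replicate 2 in log2 RPKM (y axis) against the span of the gene in kb (x axis, log scale) for 50 members at E18.5, Wfdc2 +/+ on the left and Wfdc2 GFP/GFP on the right; the dotted line marks 100 kb. In the mutants 17 of the 20 members longer than 100 kb lie above 0, with Fbn2 among the highest and Col6a4 the lowest, while the controls scatter less.

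Whether the genotype difference at P1.5 departed from that at E18.5 was tested as the difference of the differences. No member was called by limma, nor any gene (0.0% of all genes) and no member by voom. At an unadjusted p under 0.05 there were 0 members with a positive and 3 with a negative value, against 2.18% and 8.06% of all genes, namely Col11a2 at −3.42 (SE 1.16, adjusted p = 0.366), Col20a1 at −1.91 (SE 0.657, adjusted p = 0.372) and Lox at −1.86 (SE 0.696, adjusted p = 0.416), on the log2 scale. The median of the members was −0.47 and that of all genes −0.33. For Lox at E18.5, mutant replicate 1 was the highest library (840.0 RPM) and mutant replicate 2 the lowest (413 RPM), with controls of 444 and 467 RPM. At P1.5 both mutant libraries lay below both controls.

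Chains that assemble into the same trimer can be compared with each other within a library, which removes the scaling between libraries. The ratio of Col1a1 to Col1a2, per exonic kilobase, was 1.46 to 1.77 over the 8 libraries, while the chains themselves varied 7.45-fold and 6.97-fold. That is a 1.22-fold range. The ratio of Col6a1 to Col6a2 was 1.58 to 1.88, a 1.19-fold range, and that of Col5a1 to Col5a2 was 0.659 to 1.003, a 1.52-fold range. The pair with overlapping starts, Col4a1 and Col4a2, had ratios of 1.15 to 1.87, with the 4 E18.5 libraries (1.57 to 1.87) above the 4 P1.5 libraries (1.15 to 1.39). Col4a3 and Col4a4, whose starts lie 72 bases apart, had ratios of 0.799 to 1.81, a 2.26-fold range, and Col4a5 and Col4a6 of 3.61 to 11.6. The third chain of collagen VI varied more: Col6a3 to Col6a1 was lowest in P1.5 Wfdc2 +/+ replicate 1 (0.0502) and highest in E18.5 Wfdc2 GFP/GFP replicate 1 (0.464), a 9.23-fold range. Of the other pairs compared, Col9a1 to Col9a2 ran from 0.00739 to 0.476, a 64.5-fold range, with Col9a1 at 3 reads in P1.5 Wfdc2 +/+ replicate 2. Col8a1 to Col8a2 had a 3.97-fold range. These ratios are given as descriptions without a test, and any intronic reads count in them. Of the pairs named, the narrowest ranges were those of Col6a1 to Col6a2 and of Col1a1 to Col1a2, the latter encoded on different chromosomes.

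The genes that process collagen or build elastic fibres beside the members were described by lists. Of 21 collagen processing enzymes and chaperones found, 19 were tested and 0 were called between stages in either direction (6 higher, 13 lower, median −0.21). Among 15 other elastic fibre assembly genes, Vtn (1.85, adjusted p = 0.0409) and Tnxb (1.30, adjusted p = 0.0469) rose between stages by limma and none fell. Of 13 tested basement membrane genes 12 had lower values (median −0.90) and 2 fell, the laminin chain Lama3 (−2.99, adjusted p = 0.0392) and the nidogen Nid2 (−1.65, adjusted p = 0.0409). Ogn, a small proteoglycan, fell (−1.92, adjusted p = 0.0316) as the single called gene of 12 fibril-binding proteoglycans and matricellular genes (3 higher, 9 lower, median −0.54). Ctgf, a gene that responds to TGF-beta, rose (1.25, adjusted p = 0.0402) among 10 TGF-beta ligands, receptors and responders (2 higher, 8 lower, median −0.45). No gene of these lists was called in a genotype comparison or in the difference of differences.

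Markers of the cells that make or surround the matrix did not all change in the members' direction between stages. Their part in the results was not tested. The 6 fibroblast markers summed to 696 to 761 RPM in the E18.5 libraries, 321 and 670.0 in P1.5 Wfdc2 +/+ and 247 and 341 in P1.5 Wfdc2 GFP/GFP, and all 6 tested had lower fitted values at P1.5. Of the P1.5 controls, replicate 1 was thus the lower in both collagen and fibroblast markers. It was also the lower in the sums of smooth muscle, cartilage, bone, Schwann cell, endothelial and leukocyte markers. In the sums of mesothelial, epithelial and red blood cell markers it was the higher. Pdgfra, a receptor of alveolar fibroblasts, was called lower between stages (−1.57, adjusted p = 0.0425). Smooth muscle and myofibroblast markers summed to 473 to 667 RPM at E18.5, 365 and 998 in P1.5 Wfdc2 +/+, and 1034 and 1245 in P1.5 Wfdc2 GFP/GFP, with 4 of 6 higher at P1.5, and Tagln rose (1.76, adjusted p = 0.0348). Cartilage markers ran from 108 to 225 RPM, with 2 of the 4 tested called lower between stages, Sox9 (−1.90, adjusted p = 0.0289) and Hapln1 (−1.84, adjusted p = 0.0443). The other 2 tested had higher fitted values at P1.5, and the highest sum was that of P1.5 Wfdc2 GFP/GFP replicate 1. Matn1 had no read in any P1.5 library. Epithelial markers, among which Sftpc had 6444 to 62335 RPM in the 8 libraries, summed to 7952 to 21224 RPM at E18.5 and 27821 to 68892 at P1.5, with the lowest value in E18.5 Wfdc2 GFP/GFP replicate 1. Of these 5 markers, 3 had higher and 2 lower fitted values at P1.5, with a median log2 difference of 0.005. No marker of bone (3.68 to 69.3 RPM), mesothelium (292 to 2045), Schwann cells (1.81 to 10.7), endothelium (1069.8 to 1813), epithelium, leukocytes (56.0 to 134) or red blood cells (339 to 2768) was called between stages.

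The 10 members below the filter were Col8a1, Col9a1, Col10a1, Col11a1, Col19a1, Col22a1, Col24a1, Col28a1, Col6a5 and Fbln7. Their mean levels ran from 0.0783 RPM for Col19a1, at or under the floor, to 6.54 RPM for Col24a1. The lack of a test says little about the longer of them, since their span lowers the RPKM. Reads of Col10a1 (0.197 RPM) cannot be told apart from those of Nt5dc1, whose gene contains it on the other strand, because no strand setting of the counting is given. The same holds for the stretches that Loxl3 shares with Htra2, Col18a1 with Slc19a1 and Mfap4 with Mapk7.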

How the data were processed

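Lung RNA of 8 mice, 2 in each of 4 groups of genotype and age, was read from 1 table of log2 RPKM deposited by the authors. Per the labels and the study's methods, they made directional libraries, ran CASAVA 1.8, trimmed with Trim Galore 0.4.0, mapped with TopHat2 2.1.1 to mm10 and counted and scaled in SeqMonk. The strand setting of the counting, and which sequencer read which library, are not given in the sources used here. Gene length in these values is the span with introns, and 0 reads stand in the table as 0.9 read. Reads were recovered from the steps of the values (99.86% to 99.96% whole within 0.02), and RPM and values per exonic kilobase were computed from them. Intervals of counting were not needed beside replicate values, and the floor of 3 reads covers counting error only.

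The members are those the name pattern gives. They, the role groups, the marker lists and the pathway lists were chosen with earlier results of these data known. Values in every library are given for 12 core members (Eln, Fbn1, Fbn2, Fbln5, Lox, Loxl1, Col1a1, Col1a2, Col3a1, Col4a1, Col4a2 and Col4a3), for members called between stages or genotypes (up to 8 a direction), and for the 3 largest differences a direction among tested members without overlap in each genotype comparison. Of the last, Col9a3, Col15a1, Loxl4 and Col5a3 are given for the E18.5 libraries only. Other members are given by counts, and those named beyond this rule (Mfap2, Mfap4, Mfap5, Fbln2, Emilin1, Col2a1, Col6a1, Col6a2, Col6a3, Col4a3bp, Col18a1, Col20a1, Col24a1 and the chains in ratios) were chosen after their values were seen. Of the lists, called genes are named.

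The deposited log2 RPKM of genes that averaged 0.05 RPKM or more were fitted with limma 3.58.1 (R 4.3.3), without a pseudocount, as 4 group means with a trended prior and 4 residual degrees of freedom. P-values are two-sided and Benjamini-Hochberg adjusted over 15627 genes with a threshold of 0.05. They rest on the spread between 2 animals a group. Replicate 1 of each group carried Xist reads and replicate 2 Ddx3y reads, so this spread includes any difference between the sexes. A fit without a library leaves its group with a single sex. Stage was tested as the mean of both genotypes and within each, genotype at each age, and the difference of the genotype differences. Alternatives were pseudocounts of 0.1 and 1 RPKM, a filter at 0.5 RPKM or none, median centring, quantile normalization, median-of-ratios scaling, voom on the recovered reads, a robust prior, a prior without a trend, a replicate block, the libraries of a stage alone, an adjusted p under 0.1, a change over 2-fold, and each library left out. Leaving out E18.5 Wfdc2 GFP/GFP replicate 1 together with either P1.5 Wfdc2 +/+ library was an addition made after seeing the data. The code was tested on simulated data. Tables and figures used Python 3.11.15, numpy 2.4.6, pandas 2.3.3 and matplotlib 3.10.9. Promoter sequences came from RefSeq tables of GRCm38.p6 and were printed only where the RefSeq start matched the deposited one.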

Additional observations from a re-analysis of the deposited data

Results flagged for a closer look

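For Col24a1 and Col20a1, both mutant libraries lay on the higher side of both controls at E18.5 and on the lower side at P1.5. Of all genes tested, 26.5% were higher without overlap at E18.5 and 26.9% lower without overlap at P1.5. The share of genes with both was not computed. For Col24a1 the margin at E18.5 was narrow, 9.20 against 9.03 RPM. Col24a1, a minor fibrillar chain, had 9.03 and 7.41 RPM in E18.5 Wfdc2 +/+, 14.996 and 9.20 in E18.5 Wfdc2 GFP/GFP, 1.98 and 7.503 in P1.5 Wfdc2 +/+, and 0.9498 and 1.27 in P1.5 Wfdc2 GFP/GFP. Its genotype difference at P1.5 minus that at E18.5 was −2.34 on the log2 scale, and this was not tested because the gene was below the filter on low values. Col20a1, a fibril-associated chain, had 3.81 and 3.91 RPM in E18.5 Wfdc2 +/+, 6.40 and 7.83 in E18.5 Wfdc2 GFP/GFP, 6.86 and 12.3 in P1.5 Wfdc2 +/+, and 3.63 and 5.54 in P1.5 Wfdc2 GFP/GFP. The same difference was −1.91, with an adjusted p of 0.372 by limma, so it did not pass the threshold.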

How the results depend on the processing

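Between stages, the 2 members called became 6 (1 higher, 5 lower) with a pseudocount of 0.1 RPKM, against 3.29% and 3.14% of all genes. They became 1 with a pseudocount of 1 (1.71% and 1.24% of all genes) and 1 with no filter (0.801% and 0.847%). A mean of at least 0.5 RPKM gave 8 (1 and 7, against 7.86% and 10.0%). Median centring gave 8 (4 and 4, against 8.18% and 3.61%) and quantile normalization 10.0 (3 and 7, against 4.54% and 3.63%). Median-of-ratios scaling gave 9 (4 and 5, against 8.25% and 4.66%). An adjusted p under 0.1 gave 19 (2 and 17, against 10.1% and 21.7%). With 1 library left out they ran from 0 to 35, and 39 were called without E18.5 Wfdc2 GFP/GFP replicate 1 and P1.5 Wfdc2 +/+ replicate 2 together. In Wfdc2 GFP/GFP, the 2 calls became 1 with either pseudocount, 0 with no filter, 5 with median centring, 5 with quantile normalization, 4 with median-of-ratios scaling, 0 with voom, 1 with a robust prior, 1 with a prior without a trend and 15 at an adjusted p under 0.1, and ran from 0 to 21 with a library left out. In Wfdc2 +/+ the calls changed with 1 library left out and without the same 2 libraries, as did the share of all genes called. Genotype calls of members at P1.5 appeared only with 2 libraries left out together, as given above beside the share of all genes. The median of the members between stages was −0.23 with a pseudocount of 1. Their median genotype difference ran from −0.92 to 0.54 at P1.5 and from −0.027 to 0.52 at E18.5 with a library left out, and was −0.044 at E18.5 with median centring. The stage difference of Fbln5 (−0.20) was 0.27 with median centring, 0.041 with quantile normalization and 0.16 with median-of-ratios scaling, and ran from −0.89 to 0.48 with 1 library left out and was −1.17 without those 2 libraries. Why these values moved was not tested. Of 313 values of named members under the settings that keep all libraries, 287 kept direction and side of the threshold, 18 lost a call, 5 gained one and 3 changed sign. Only Lox and Col14a1, between stages and within Wfdc2 GFP/GFP, had a call to lose. Most of the 287 were thus values without a call that stayed without one. The other priors and the replicate blocks leave the log2 differences unchanged, so direction could not change under them.

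The replicate numbers are not stated to mark littermates. Deviations from the group mean correlated across genes at 0.23 between same-numbered libraries of E18.5 and 0.21 of P1.5. They correlated at −0.29 to 0.08 for the other group pairs, negative for 3 of them. Those pairs join libraries of different stages, which cannot be littermates, so they say nothing on pairing within a stage. Within a stage both values were positive, but replicate number coincided with sex, so shared litter and sex cannot be told apart. The numbers were not taken to pair the samples, and the replicate block is equally a block of sex. With the replicate block, 1 member was called between stages (0 higher, 1 lower, Lox), against 1.16% and 0.678% of all genes. In Wfdc2 GFP/GFP 1 member was called (0.480% of all genes higher, 0.320% lower), and no genotype call of a member changed. With a block within each stage, 0 members were called between genotypes at P1.5 or E18.5, or in the difference of differences. Of all 15627 genes, that fit called 1 higher and 8 lower at P1.5, and 0 higher and 1 lower at E18.5.

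The spread between libraries was uneven, with Col1a1 7.45-fold apart in the P1.5 control pair and closer in the other 3 pairs. Col19a1 and Col10a1 lay at or near the floor of 3 reads.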
